A study of Mus musculus with 4 samples.

Results

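The genes described here build the mitochondrial respiratory chain without being structural parts of it: the assembly factors of complexes I to IV and of ATP synthase, the enzymes that make coenzyme Q, and Lrpprc. They were chosen by symbol, such as Ndufaf, Sdhaf, Uqcc, Coa and Coq followed by a number or letter and a list of single names. The rule uses no measured value, but earlier results of these data were known when the genes were chosen. All 56 gene symbols of GENCODE release M21 that meet this rule had values, out of 11502 symbols in the table, and all 56 averaged 1 FPKM or more over the 4 libraries, the level from which 10604 genes were compared. By role, 14 act on complex I, 4 on complex II, 5 on complex III, 17 on complex IV and 2 on ATP synthase, while 13 act in coenzyme Q metabolism and 1 on mitochondrial mRNA.

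HT-22 is an immortalized mouse cell line derived from hippocampal neurons, and each of its 4 libraries stood for a group of its own. Ctrl cells carried a negative control lentivirus, and PGC-1α cells carried a lentivirus that overexpresses PGC-1α. Both had been selected with puromycin and received no further treatment. Ctrl+OGD and PGC-1α+OGD cells underwent oxygen and glucose deprivation (OGD) for 2 h under 5% CO2 and 95% N2, in a medium lacking glucose and serum, and then recovered for 24 h in normal medium. All groups came from this 1 line, with a wild type genotype apart from the lentivirus, and the OGD libraries show the state after recovery. With 1 library per group there is no replicate check of any difference, no test was possible, and a fold change compares 2 libraries. In such bulk RNA, fewer cells with a transcript and less of it per cell cannot be told apart.

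The respiratory chain passes electrons from NADH and succinate to oxygen and pumps protons that drive ATP synthase. Its complexes combine subunits made in the cytosol with subunits made inside the mitochondrion, and assembly factors are proteins that bind these parts, insert heme, copper, flavin or iron-sulfur groups, and leave before the complex works. Coenzyme Q is the lipid that carries electrons from complexes I and II to complex III, and is built from an aromatic ring and a long polyprenyl tail. PGC-1α, encoded by Ppargc1a, is a transcriptional coactivator known for raising nuclear genes of mitochondrial respiration through partners such as the estrogen-related receptors and nuclear respiratory factors.

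Ppargc1a, the overexpressed gene, was at 0.900, 35.1, 0.103 and 8.41 FPKM. Here and below, the levels of a gene are given with the libraries without OGD first (Ctrl, then PGC-1α), followed by those with OGD (Ctrl+OGD, then PGC-1α+OGD). FPKM, a fragment count corrected for the length of the transcript and for sequencing depth, is the unit taken for the table, which does not name it. Levels were summed over the deposited transcripts of a gene. The log2 fold change of Ppargc1a, a difference of log2(FPKM + 1) as for every gene below, was 4.25 without OGD and 3.09 with OGD. Calls of 1.5-fold below are on this scale unless another setting is named. It gives a smaller change than the ratio of FPKM, most so at low levels. The number of reads behind the values is unknown, so no counting error can be given. The libraries summed to 331892 to 353381 FPKM, and transcripts of the mitochondrial genome held 4.23%, 5.32%, 4.37% and 5.31% of these sums. Of 12 neuronal markers, 2 had a row in the table, Camk2a at 4.405 to 7.31 FPKM and Syp at 0.258 to 0.997, while of 5 fibroblast markers 3 had a row, Col1a1, Col1a2 and Pdgfrb, and summed to 409 to 481 FPKM. The labelled cell type, hippocampal neurons, thus had few of its defining markers in these libraries, and the part of this in the results was not tested.

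Promoter sequences are shown first for the genes that were at least 1.5-fold higher in PGC-1α than in Ctrl cells and that hold letters bound by partners of PGC-1α. The sequences and starts are those of RefSeq (GRCm38.p6), in a window from 250 bases before to 50 bases after the start, which was given for 49 of the 56 genes. Each line below runs 5′ to 3′ on the strand of the gene and stops before the annotated GENCODE gene begins. Capitals mark the letters found. Ndufaf4 (chr4:24897833-24898082, plus strand) holds the nuclear respiratory factor 1 letters GCGCANGCG 113 bases before its start, in both orientations over the same place. Pdss1 (chr2:22895272-22895521, plus strand) holds AAGGTCA, the short form of the estrogen-related receptor element, 248 bases before its start. Sdhaf4 (chr1:24005657-24005890, minus strand) holds the GCGCANGCG letters in reverse orientation 44 bases before its start, and again 9 bases after it, in the part not shown.
Ndufaf4: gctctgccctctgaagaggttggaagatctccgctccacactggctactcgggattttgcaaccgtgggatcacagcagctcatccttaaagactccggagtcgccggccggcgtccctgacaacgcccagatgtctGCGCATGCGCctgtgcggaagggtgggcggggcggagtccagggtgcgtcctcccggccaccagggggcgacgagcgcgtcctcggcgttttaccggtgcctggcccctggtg
Pdss1: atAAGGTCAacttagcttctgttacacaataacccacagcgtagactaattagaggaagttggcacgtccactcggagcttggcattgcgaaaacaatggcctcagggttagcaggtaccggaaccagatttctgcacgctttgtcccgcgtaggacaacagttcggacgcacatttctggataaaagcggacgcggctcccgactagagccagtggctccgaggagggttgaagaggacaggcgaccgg
Sdhaf4: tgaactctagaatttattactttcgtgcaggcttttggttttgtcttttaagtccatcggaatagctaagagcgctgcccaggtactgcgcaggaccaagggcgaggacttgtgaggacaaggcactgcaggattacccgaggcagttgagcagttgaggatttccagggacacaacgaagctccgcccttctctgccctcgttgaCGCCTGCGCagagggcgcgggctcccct

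The same letters were looked for in every matched promoter, and the share among the 56 genes is given beside the share among all genes compared. GCGCANGCG, searched on both strands like the others, was found in 9 of 49 promoters (18.4%, and 16.5% of 8406 promoters of all genes compared): Coa5, Coq3, Coq8a, Ndufaf4, Ndufaf5, Sdhaf3, Sdhaf4, Ttc19 and Uqcc2. CCGGAAGT, bound by GABP, was found in 6 (12.2%, against 10.4%): Bcs1l, Cox10, Cox14, Cox15, Cox16 and Timmdc1. AAGGTCA was found in 3 (6.12%, against 3.72%): Coq10a, Pdss1 and Uqcc3. TCAAGGTCA, the longer form that contains AAGGTCA, was found in 0 of 49, and in 0.309% of all promoters. Of the other genes at least 1.5-fold higher, Cox11 and Ecsit had none of these letters in the window and Coa6 was not matched. A match describes letters only.

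The 56 genes were expressed at moderate levels, and none was listed at 0 in any library. The median of their mean levels was 10.7 FPKM, against 12.6 FPKM over all genes compared, with a range from 1.29 FPKM (Coq6) to 233 FPKM (Cox17). Means of at least 100 FPKM were found for 4 genes, Cox17, Uqcc2, Ndufaf2 and Cox20, while 10 lay under 5 FPKM and 27 between 10 and 50 FPKM. Summed over the 56 genes, the level was 1227, 1440, 1416 and 1465 FPKM, or 0.370%, 0.426%, 0.401% and 0.422% of the library. Ctrl was therefore the lowest of the 4 sums. Gene by gene, Ctrl held the lowest level of 28 of the 56 and the highest of 7, whereas PGC-1α+OGD held the highest level of 19. These counts were not made over all genes, so whether they concern these genes or the libraries as a whole was not tested. Since Ctrl enters the comparison of PGC-1α with Ctrl and that of Ctrl+OGD with Ctrl, these 2 comparisons share a library.

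**Figure D1:**
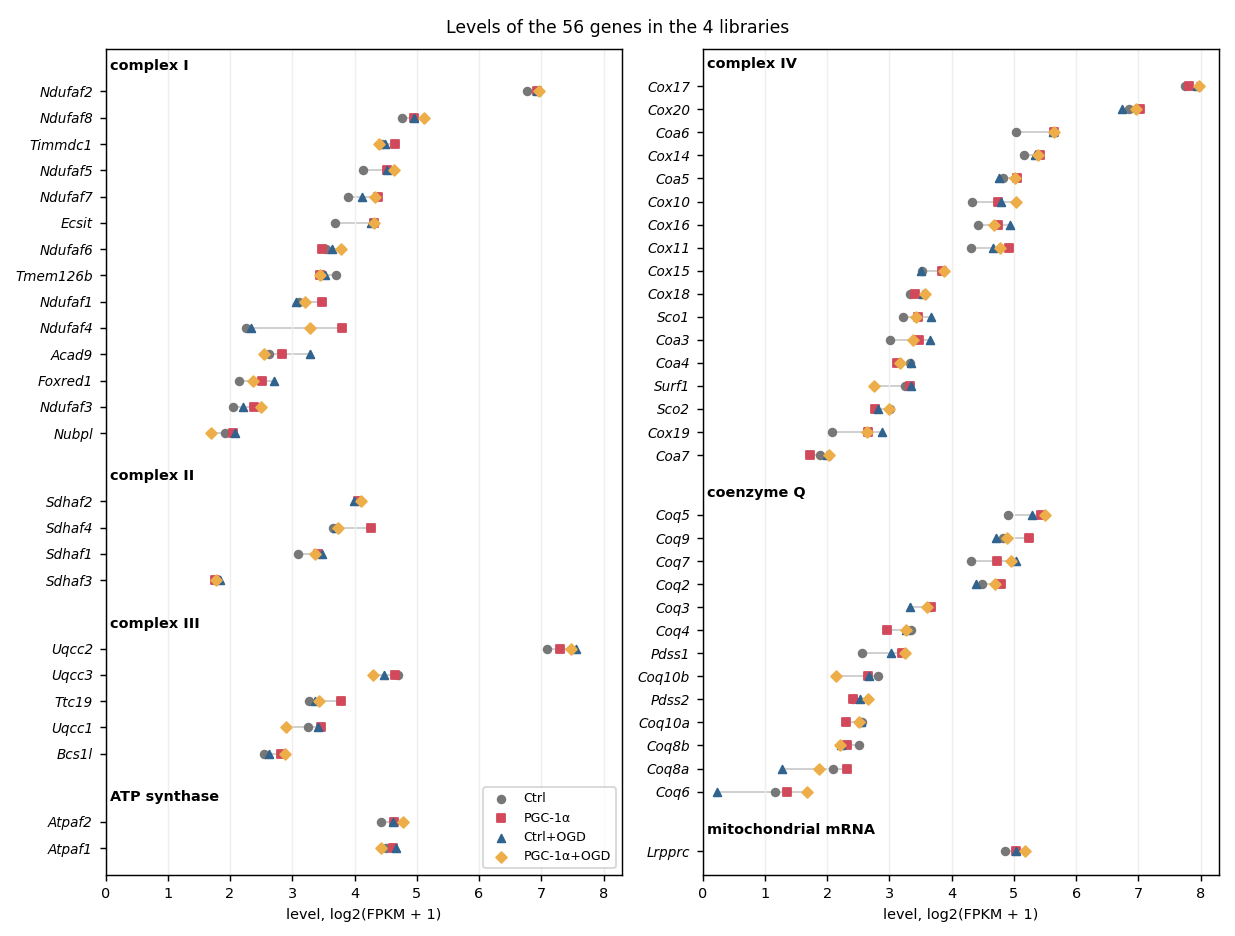
Level of each of the 56 genes in the 4 libraries, as log2(FPKM + 1), grouped by role and ordered by mean level. Each symbol is 1 library and the grey line joins the lowest and highest, and the widest spreads are those of Ndufaf4, with both PGC-1α libraries on the right, and Coq6, with Ctrl+OGD on the left.

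PGC-1α overexpression without OGD went with higher levels of most of these genes, by small amounts. Ndufaf4 stood apart at a log2 fold change of 1.53, and Pdss1, Ecsit, Coa6, Cox11 and Sdhaf4 were between 0.60 and 0.65, so that 6 of 56 genes were at least 1.5-fold higher in PGC-1α than in Ctrl (all genes, 4.91%). None was 1.5-fold lower (all genes, 5.63%). The median log2 fold change of the 56 genes was 0.21, against -0.03 over all genes compared, and 44 of 56 were above 0, against 45.8% of all genes. At the threshold of 1.5-fold, a log2 fold change of 0.58, Sdhaf4 (0.60) was the member just inside and Cox19 (0.58) the member just outside. With 0.1 added to FPKM in place of 1, 7 genes were at least 1.5-fold higher (all genes, 6.43%) and 0 lower (all genes, 7.73%).

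After OGD and recovery the same comparison gave smaller differences. Coq6 (1.44), Ndufaf4 (0.94) and Coq8a (0.60) were at least 1.5-fold higher in PGC-1α+OGD than in Ctrl+OGD (all genes, 3.08%), and Acad9 (-0.74) and Surf1 (-0.60) were at least 1.5-fold lower (all genes, 3.82%). The median over the 56 genes was 0.05, against -0.01 over all genes (0.12, against -0.01, once a trend with transcript length was removed), and 35 were above 0, against 47.1% of all genes. These 2 comparisons of PGC-1α with control have no library in common. Ndufaf4 was the gene at least 1.5-fold higher in both (75 of 10604 over all genes), and no gene of the 56 was called in opposite directions (100 of 10604). Above 0 in both were 30 genes (53.6%, and 23.3% of all genes). Above 0 without OGD and below 0 with OGD were 14 (25.0%, and 22.5% of all genes). The other way round were 5 (2523 of 10604 over all genes), and below 0 in both were 7 (3225 of 10604). The log2 fold change was lower with OGD than without in 40 of 56 genes (71.4%, and 49.3% of all genes), with a median difference of -0.19, against 0.01 over all genes.

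**Figure D2:**
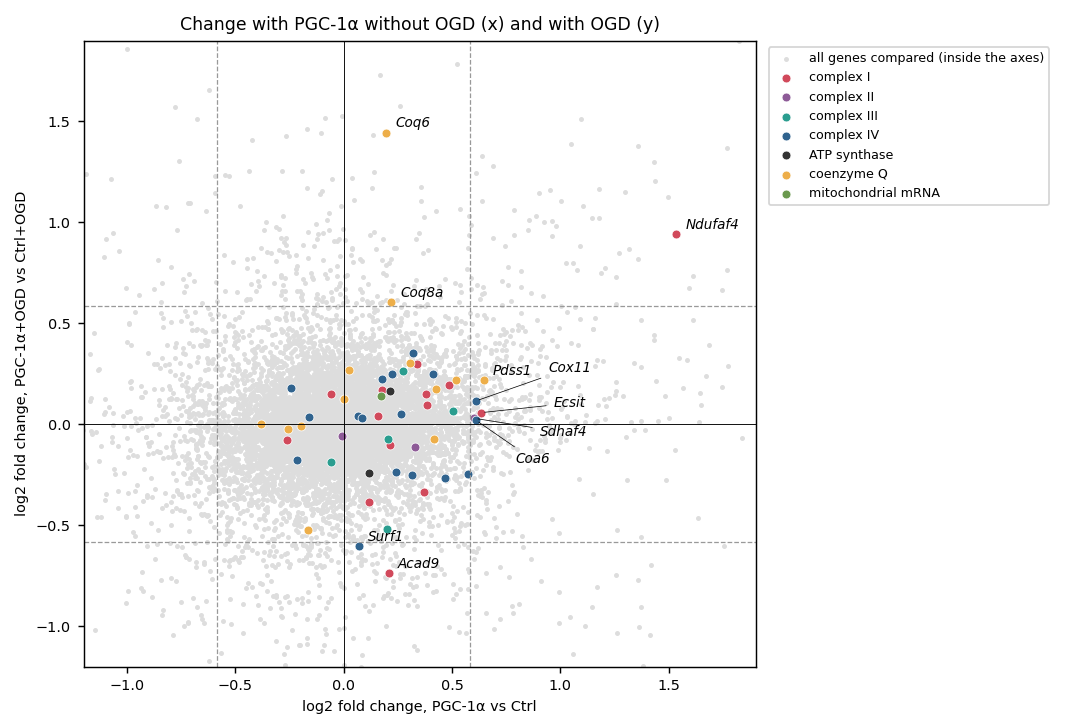
Log2 fold change of PGC-1α vs Ctrl (horizontal) and of PGC-1α+OGD vs Ctrl+OGD (vertical) for the 56 genes, coloured by role, over all genes compared in grey (genes outside the axis limits are not drawn). Dashed lines mark 1.5-fold, and Ndufaf4 is the coloured point past the upper line and the right line, with most other points right of 0 and near the horizontal axis.

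OGD and recovery in control cells moved the genes in both directions. Cox19 (0.81), Coq7 (0.72), Acad9 (0.66), Coa3 (0.64) and Coa6 (0.59) were at least 1.5-fold higher in Ctrl+OGD than in Ctrl (all genes, 6.2%), while Coq6 (-0.93) and Coq8a (-0.83) were at least 1.5-fold lower (all genes, 7.71%). The median was 0.13, against -0.02 over all genes, and 39 of 56 were above 0, against 48.0% of all genes. In PGC-1α cells, OGD left every member within 1.5-fold on the log2(FPKM + 1) scale: 0 were higher (all genes, 3.82%) and 0 lower (all genes, 5.22%) in PGC-1α+OGD than in PGC-1α. The range there was from -0.58 (Surf1, just inside the threshold) to 0.32 (Coq6), the median was -0.01, and 27 of 56 were above 0, against 50.1% of all genes. With 0.1 added to FPKM in place of 1, 3 members were at least 1.5-fold lower in this comparison (all genes, 7.23%).

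Complex I, the NADH dehydrogenase, has the longest list of assembly steps, and the median of its 14 factors was 0.28 for PGC-1α without OGD and 0.08 with OGD. Ndufaf4 (ENSMUSG00000028261.13, chr4:24898083-24905001, GRCm38), which acts with Ndufaf3 in early assembly, was at 3.78, 12.8, 4.07 and 8.74 FPKM. Both PGC-1α libraries lay above both control libraries, and the higher of the PGC-1α levels was the one without OGD, as for Ppargc1a itself. OGD alone left Ndufaf4 almost level in control cells (0.09), and the level was lower by 0.51 on the log2 scale in PGC-1α+OGD than in PGC-1α. Its promoter with the GCGCATGCGC letters is shown above. Ndufaf3, the partner, was at 3.13, 4.22, 3.59 and 4.66 FPKM, which is 0.34 without and 0.30 with OGD and under 1.5-fold.

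Ecsit and Acad9 are parts of the complex that assembles the membrane arm of complex I, together with Ndufaf1, Tmem126b and Timmdc1. Ecsit (ENSMUSG00000066839.12, chr9:22072246-22085438) was at 11.8, 18.9, 18.2 and 18.9 FPKM, so Ctrl was low and the other 3 libraries were nearly level. Acad9 (ENSMUSG00000027710.14, chr3:36065979-36092853), which also oxidizes fatty acids, was at 5.17, 6.13, 8.75 and 4.84 FPKM, with Ctrl+OGD the high library. Acad9 was thus higher by 0.21 with PGC-1α without OGD and lower by 0.74 on the log2 scale with OGD. Acad9 shares exons on the same strand with the annotated Gm43079. Tmem126b had the lowest log2 fold change of the complex I factors in PGC-1α vs Ctrl, at 12.01, 9.86, 10.5 and 9.94 FPKM (-0.26), with Ctrl the highest library. Ndufaf1 was at 7.57, 10.2, 7.31 and 8.22 FPKM (0.38 without and 0.15 with OGD), and Timmdc1 at 20.6, 24.1, 21.5 and 19.97 FPKM (0.22 and -0.10). The parts of this complex therefore did not share a pattern over the libraries.

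Of the other complex I factors, Ndufaf2, a late-acting factor, had the highest level of the group at 108, 121, 121 and 124 FPKM, a log2 fold change of 0.16 without and 0.04 with OGD. Ndufaf5 and Ndufaf7, enzymes that modify subunits of complex I, had 0.38 and 0.48 in PGC-1α vs Ctrl and 0.10 and 0.20 in PGC-1α+OGD vs Ctrl+OGD. Foxred1, a flavoprotein of assembly, was at 3.39, 4.68, 5.55 and 4.19 FPKM, so PGC-1α was above its control without OGD (0.37) and below it with OGD (-0.34). Nubpl, which delivers iron-sulfur clusters, had 0.12 and -0.38. Ndufaf6 and Ndufaf8 lay between -0.06 and 0.18 in both comparisons. None of these genes passed 1.5-fold on the log2(FPKM + 1) scale in any comparison.

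Complex II, succinate dehydrogenase, has 4 factors, and Sdhaf4 was the one past 1.5-fold. Sdhaf4 (ENSMUSG00000026154.4, chr1:23995939-24005656), which binds the catalytic subunit Sdha once its flavin is in place, was at 11.6, 18.2, 12.04 and 12.3 FPKM. Only the PGC-1α library without OGD was high, and the log2 fold change was 0.60 without and 0.03 with OGD. Sdhaf1, which serves the iron-sulfur subunit, was at 7.51, 9.68, 10.2 and 9.32 FPKM (0.33 and -0.11). Sdhaf2, needed to attach flavin to Sdha and the highest of the 4, was at 15.7, 15.7, 14.8 and 16.2 FPKM. Sdhaf3, another factor of the iron-sulfur subunit, was at 2.38, 2.37, 2.56 and 2.41 FPKM (-0.01 and -0.06). Sdhaf2 and Sdhaf3 were nearly level over the 4 libraries.

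The 5 complex III factors had a PGC-1α median of 0.20 without OGD and -0.07 with OGD. Their OGD median was 0.10 in control cells and -0.34 in PGC-1α cells, and none passed 1.5-fold on the log2(FPKM + 1) scale in any comparison. Ttc19, which clears fragments of the Rieske subunit, was at 8.66, 12.7, 9.32 and 9.82 FPKM, with PGC-1α the high library (0.50 without and 0.07 with OGD). Uqcc1, which binds newly made cytochrome b, was at 8.55, 9.97, 9.70 and 6.46 FPKM, with PGC-1α+OGD the low library (0.20 and -0.52). Its partner Uqcc2 had the highest level of the group, 135, 156, 186 and 177 FPKM, and was higher in both OGD libraries than in both libraries without OGD. Uqcc3 was at 25.1, 24.0, 21.3 and 18.6 FPKM, lower in both OGD libraries, and had the lowest value of the group in PGC-1α vs Ctrl (-0.06, and -0.19 with OGD). Bcs1l, which inserts the Rieske subunit, was at 4.84, 6.05, 5.17 and 6.39 FPKM, with sums higher by 0.27 and 0.26 in the PGC-1α libraries. Its transcripts of 1488, 1890 and 1679 bases differed in direction, at 1.18, -1.48 and -0.80 without OGD and 1.12, -0.54 and 0.16 with OGD. The 5 factors thus had different orders over the libraries.

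Complex IV, cytochrome c oxidase, has 17 factors here, with a PGC-1α median of 0.24 without OGD and 0.04 with OGD. Of the 5 that passed 1.5-fold in any comparison, Coa6, Cox11 and Cox19 serve the delivery of copper to its catalytic centers. Coa6 (ENSMUSG00000051671.7, chr8:126422515-126425433) was at 31.9, 49.2, 48.4 and 49.2 FPKM, so Ctrl was low and the other 3 were level. Cox11 (ENSMUSG00000020544.14, chr11:90638173-90644931) was at 18.8, 29.3, 24.3 and 26.4 FPKM, with Ctrl again the lowest (0.61 without and 0.12 with OGD). Cox19 (ENSMUSG00000045438.12, chr5:139336189-139351418) was at 3.22, 5.28, 6.37 and 5.22 FPKM, with Ctrl low and Ctrl+OGD high. In these 3 genes the log2 fold change of PGC-1α was 0.58 to 0.61 without OGD and -0.25 to 0.12 with OGD. Cox17, the copper chaperone upstream of the others, had the highest level of all 56 genes, 213, 224, 244 and 251 FPKM, and had log2 fold changes between 0.04 and 0.19 in the 4 comparisons. Cox17 shares exons on the same strand with Gm21987. Sco2 had the lowest value of the group in PGC-1α vs Ctrl (-0.24, and 0.18 with OGD), at 7.03, 5.79, 6.06 and 6.999 FPKM, and its paralog Sco1 was at 8.27, 9.97, 11.7 and 9.75 FPKM. Sco2 shares exons on the same strand with Tymp.

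Coa3 and Cox14 act on newly made Cox1, the core subunit of complex IV. Coa3 (ENSMUSG00000017188.3, chr11:101277968-101279114) was at 7.04, 10.1, 11.5 and 9.43 FPKM, with Ctrl low, and passed 1.5-fold in Ctrl+OGD vs Ctrl (0.64). Cox14 was at 34.8, 42.0, 39.5 and 41.0 FPKM (0.26 with PGC-1α without OGD and 0.05 with OGD). Surf1 (ENSMUSG00000015790.16, chr2:26913381-26916530), an inner membrane factor whose loss in people causes Leigh syndrome, was at 8.55, 9.02, 9.20 and 5.71 FPKM. Its PGC-1α+OGD level was the low value, and the log2 fold change was 0.07 without and -0.60 with OGD. Cox10 and Cox15, the enzymes of heme A synthesis, were higher in both PGC-1α libraries, by 0.41 and 0.25 for Cox10 and by 0.32 and 0.35 for Cox15. Cox20, which with Cox18 handles the subunit Cox2, was at 114, 129, 106 and 123 FPKM, also higher in both PGC-1α libraries (0.18 and 0.22). Cox18 differed by 0.08 and 0.03.

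The pair of ATP synthase factors, Atpaf1 and Atpaf2, bind the beta and alpha subunits before these join. Atpaf1 was at 21.6, 23.5, 24.4 and 20.5 FPKM (0.12 without and -0.24 with OGD), and Atpaf2 at 20.4, 23.8, 23.5 and 26.4 FPKM (0.21 and 0.16). Lrpprc, which stabilizes the mRNAs of the mitochondrial genome, was at 28.0, 31.6, 31.8 and 35.1 FPKM. Its log2 fold change was 0.17 without and 0.14 with OGD, with Ctrl lowest and PGC-1α+OGD highest.

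The coenzyme Q genes had a median of 0.20 for PGC-1α without OGD and 0.17 with OGD, while their median in Ctrl+OGD vs Ctrl was -0.09. These are medians of 13 genes in 2 libraries each, and their difference from the other roles was not tested. Pdss1 (ENSMUSG00000026784.14, chr2:22895522-22940266), a subunit of the enzyme that makes the polyprenyl tail, was at 4.89, 8.22, 7.18 and 8.53 FPKM. Ctrl was the low library, and the log2 fold change with PGC-1α was 0.65 without and 0.22 with OGD. Its promoter with AAGGTCA is shown above. Pdss2, the other subunit, was at 4.34, 4.34, 4.76 and 5.28 FPKM (0.00 and 0.12), so the summed levels of the subunits did not move together. The Pdss2 sum joins transcripts of opposite direction. That of 2127 bases gave 0.35 without and 0.40 with OGD, and that of 706 bases -0.73 and -0.49. Coq2, which joins tail and ring, had a higher summed level in both PGC-1α libraries (0.31 and 0.30), carried by different transcripts. That of 1743 bases gave 0.53 without and 0.04 with OGD, and that of 1060 bases -0.06 and 1.94.

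Coq6, Coq7, Coq5 and Coq3 modify the ring, and Coq6 had the widest spread over the libraries of the 13 genes. Coq6 (ENSMUSG00000021235.13, chr12:84361657-84373796), a ring hydroxylase, was at 1.23, 1.56, 0.175 and 2.20 FPKM. Ctrl+OGD was the low library, with a log2 fold change of -0.93 against Ctrl, and PGC-1α+OGD was higher than it by 1.44. Coq6 has the lowest mean of the 56 genes, and at such levels the fold change on the log2(FPKM + 1) scale is smaller than the ratio of FPKM. The 1.5-fold calls of Coq6 all rest on the Ctrl+OGD level of 0.175 FPKM. That level is near 0 and its precision is unknown, so the size of these changes is uncertain. Coq7 (ENSMUSG00000030652.11, chr7:118509659-118533356), which adds the last hydroxyl group, was at 18.8, 25.4, 31.7 and 30.1 FPKM, with Ctrl low and both OGD libraries high. Coq9, the lipid-binding partner of Coq7, was at 27.2, 36.9, 25.3 and 28.7 FPKM, with PGC-1α the high library (0.43 without and 0.17 with OGD). Coq5, a methyltransferase with the highest mean of the group, was at 29.1, 42.1, 37.9 and 44.4 FPKM (0.52 and 0.22). Coq3, the other methyltransferase, was at 11.5, 11.8, 9.06 and 11.1 FPKM (0.03 and 0.27).

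Coq8a (ENSMUSG00000026489.13, chr1:180165238-180199602), an atypical kinase of the pathway, was at 3.28, 3.99, 1.41 and 2.67 FPKM. Both OGD libraries were lower than both libraries without OGD, and PGC-1α was above its control by 0.22 without and 0.60 with OGD. Coq8b, its paralog, was at 4.73, 3.998, 3.66 and 3.62 FPKM, with no comparison past 1.5-fold. Coq4, needed to hold the enzymes of the pathway together, was at 9.15, 6.79, 8.58 and 8.598 FPKM, with PGC-1α the low library. Its summed level had the lowest value of all 56 genes in PGC-1α vs Ctrl (-0.38, and 0.00 with OGD). That value depends on the summing: without OGD, the Coq4 transcript of 1991 bases was higher (0.34) and that of 613 bases lower (-1.18). Coq10a and Coq10b, which bind finished coenzyme Q, had lower summed levels in both PGC-1α libraries (-0.26 and -0.02 for Coq10a, -0.17 and -0.53 for Coq10b). Without OGD, the Coq10b transcript of 1733 bases was higher (0.67) and that of 834 bases lower (-1.52), and with OGD both were lower (-0.44 and -0.46).

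The structural subunits that these factors assemble had a higher median with PGC-1α than the factors. Of 80 nuclear-encoded subunits of complexes I to IV and ATP synthase compared, of 97 symbols, 18 were at least 1.5-fold higher and 2 lower in PGC-1α vs Ctrl (22.5% and 2.5%, against 4.91% and 5.63% of all genes). Their median was 0.45, beside 0.21 for the 56 genes. With OGD the numbers were 4 higher and 1 lower (5.0% and 1.25%, against 3.08% and 3.82% of all genes), with a median of 0.17, beside 0.05. By complex, the medians of the subunits in PGC-1α vs Ctrl were 0.40 for complex I, 0.55 for complex II, 0.54 for complex III, 0.49 for complex IV and 0.49 for ATP synthase, above the medians of the factors of the same complex (0.28, 0.16, 0.20, 0.24 and 0.17). The difference between subunits and factors was not tested. Subunits were taken by symbol, so not every gene in the list need be a structural subunit. Atp5s was 1 of the 2 lower without OGD (-0.73) and 1 of the 4 higher with OGD (0.69). Subunits at least 1.5-fold higher in both comparisons were Cox7a1, an isoform of heart and skeletal muscle, at 2.92, 24.5, 2.95 and 11.8 FPKM (2.70 without and 1.70 with OGD), and Ndufb10 at 38.0, 87.4, 58.2 and 119 FPKM (1.18 and 1.02). Cox7a1 thus had the same order of libraries as Ndufaf4, with both PGC-1α libraries above both controls.

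Assembly factors outside the symbol rule were compared as a further list of 25, of which 23 passed the level filter. Cox7a2l was in this list and also among the subunits above. In PGC-1α vs Ctrl, 5 were at least 1.5-fold higher and 2 lower (21.7% and 8.70%, against 4.91% and 5.63% of all genes), with a median of 0.18. With OGD, 0 were higher and 1 lower (0% and 4.35%, against 3.08% and 3.82% of all genes), with a median of 0.02. The median was thus close to that of the 56 genes in both comparisons. The genes of mevalonate and polyprenyl supply, which make the precursor that Pdss1 and Pdss2 extend, and also cholesterol, were a list of 9. With PGC-1α, 1 of 9 was at least 1.5-fold higher without OGD (all genes, 4.91%) and 0 with OGD (all genes, 3.08%), with medians of 0.25 and -0.13. With OGD, 7 of 9 were higher in control cells (all genes, 6.2%) and 4 in PGC-1α cells (all genes, 3.82%), with medians of 0.81 and 0.56. The difference between these counts was not tested. None of the 9 was lower in these comparisons (all genes, 3.82% to 7.71%). The coenzyme Q genes had medians of -0.09 and 0.05 in the same OGD comparisons.

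**Figure D3:**
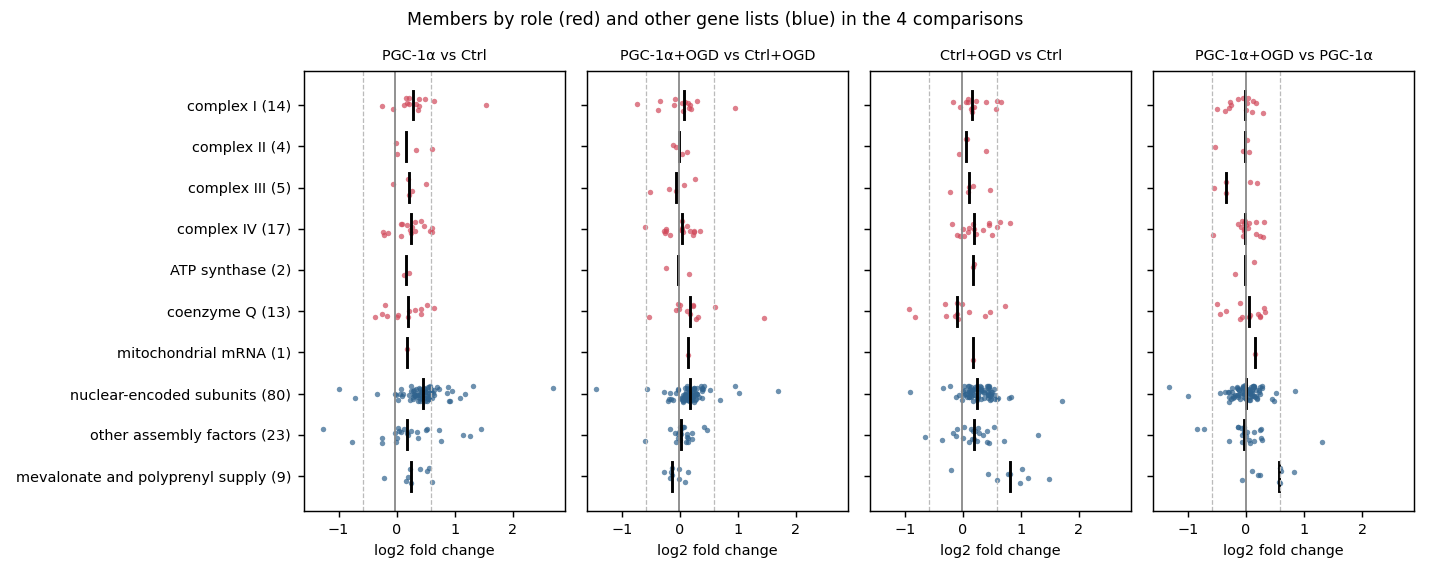
Log2 fold change of every gene in the 4 comparisons, with the 56 genes by role in red and the other lists in blue, the number of genes in brackets. Black bars are medians, the grey line is the median of all genes compared and dashed lines mark 1.5-fold, and the nuclear-encoded subunits lie further right than the red groups in PGC-1α vs Ctrl, while mevalonate genes lie right in the OGD comparisons.

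Many of these genes had values for more than 1 transcript, which could differ in direction. Of the 56 genes, 30 had 2 to 4 deposited transcripts. In 7 of them (Bcs1l, Coq10b, Coq8a, Foxred1, Ndufaf3, Ndufaf4 and Ttc19) transcripts differed by 1.5-fold or more in opposite directions in PGC-1α vs Ctrl. That number was 5 in PGC-1α+OGD vs Ctrl+OGD, 7 in Ctrl+OGD vs Ctrl and 6 in PGC-1α+OGD vs PGC-1α. Genes outside the 56 were not counted in this way, so whether such numbers are particular to the 56 was not tested. For Ndufaf4 the transcript of 3632 bases was at 2.81, 12.8, 2.34 and 7.997 FPKM (1.86 without and 1.43 with OGD), and the one of 673 bases at 0.968, 0, 1.73 and 0.747 FPKM. The long transcript carried the higher Ndufaf4 level in both PGC-1α libraries.

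The called value of Ecsit depends on the summing of its transcripts. Its transcript of 1673 bases was at 10.8, 7.02, 4.51 and 15.8 FPKM, that of 1676 bases at 1.02, 7.93, 5.68 and 3.09 FPKM, and that of 1462 bases at 0, 3.91, 7.98 and 0.0217 FPKM. The most abundant transcript alone gave -0.55 in PGC-1α vs Ctrl on the log2 scale, where the sum gave 0.63. Ttc19 was similar, as its transcript of 2193 bases was at 1.89, 9.02, 5.94 and 2.46 FPKM and that of 3410 bases at 6.77, 3.15, 2.59 and 6.51 FPKM. Coq6 was at 0 for its transcript of 699 bases in both control libraries. Coa6 and Cox11, in contrast, were carried by 1 transcript, at 31.3, 48.4, 47.7 and 48.4 FPKM for Coa6 and 16.7, 26.5, 19.4 and 23.7 FPKM for Cox11. With the highest transcript in place of the sum, 9 of 55 genes were at least 1.5-fold higher in PGC-1α vs Ctrl (all genes, 7.80%) and 12 in Ctrl+OGD vs Ctrl (all genes, 9.59%).

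**Figure D4:**
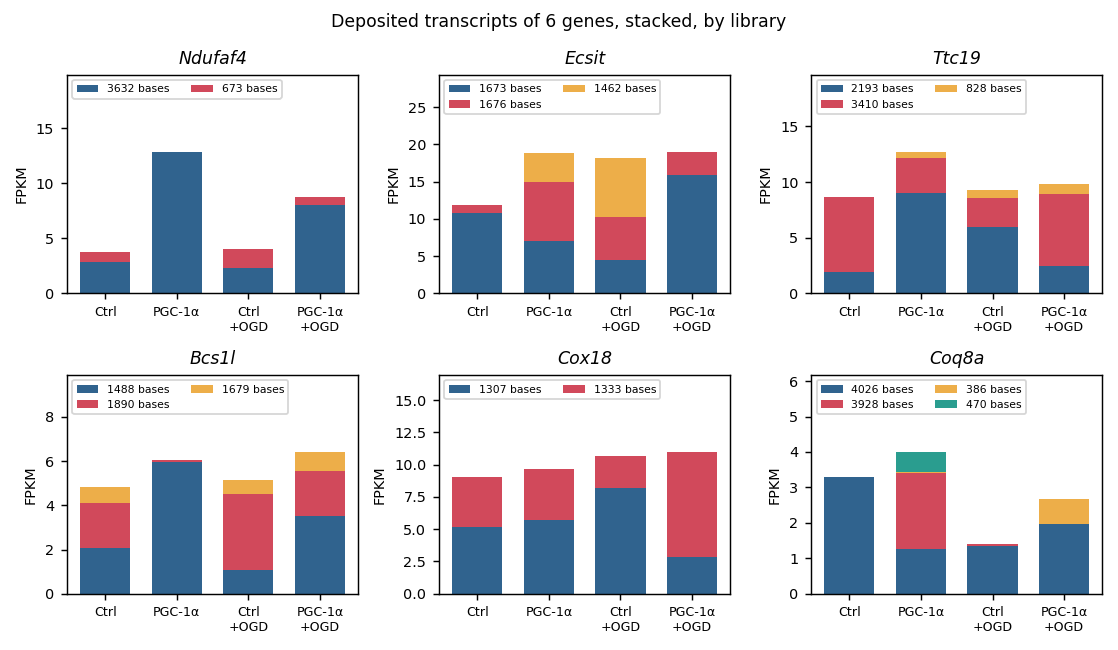
FPKM of each deposited transcript of 6 genes, stacked so that the height is the summed level, in the 4 libraries, with transcript lengths in the key. Ndufaf4 is dominated by its transcript of 3632 bases, while in Ecsit, Ttc19, Bcs1l and Cox18 the shares of the transcripts change between libraries more than the height does.

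Exons shared with other genes touch some of the values. Among the 56, 6 share exons on the same strand with another annotated gene, and 22 overlap exons of a gene on the other strand. Libraries were made with a stranded kit, but whether strand was used in counting is not given in the sources used here, so reads of overlapping genes on opposite strands may not have been separated. The overlapping genes of called members were Cntd1 for Coa3, Tarbp1 for Coa6, Tom1l1 for Cox11, Gm16845 for Ecsit, Gm26524 for Sdhaf4, A130006I12Rik and Abi1 for Pdss1, Fam161b for Coq6, Cdc42bpa for Coq8a and Surf2 for Surf1. Matches to transcripts of another gene, with at least 95% identity over at least 50% of the transcript, exist for 7 of the 56 genes, none of them called. For Cox16, Cox17, Sco2 and Sdhaf1 the matched genes are those that share or overlap their exons, so these matches show no separate copy. For Cox16, Sco2 and Sdhaf1 the matched gene also had a row in the table. Coq10b, Coq2 and Cox20 matched processed pseudogenes without a row. Ndufaf4 had neither a shared exon nor such a match.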

How the data were processed

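Poly(A) RNA of 4 HT-22 libraries, 1 per group, was sequenced from both ends after stranded library preparation, and the submitters' processing notes name HISAT2 2.1.0 and GRCm38. The authors deposited 1 table of values for 25889 Ensembl transcripts without naming the unit, and these deposited values were taken as FPKM. The counter, its annotation and its filters are not given in the sources used here. No whole-read steps were found among low values, so depth is unknown. By identifier without version, 25822 transcripts were matched to GENCODE M21 and 67 were left out. Transcripts were summed per symbol. Fold changes are differences of log2(FPKM + 1) between 2 libraries over the 10604 genes averaging 1 FPKM or more, called at 1.5-fold, without p values. The members and lists were chosen with earlier results of these data known. Genes named with all values were those past 1.5-fold in any comparison, the highest and lowest log2 fold change in PGC-1α vs Ctrl and the highest mean of each role, and of the other lists those past 1.5-fold in both comparisons of PGC-1α with control. Further members were named for their role, after their values were seen. Alternatives were the highest transcript, pseudocounts of 0.1 and 0.01, no filter, a minimum mean of 5, scaling by median ratio or upper quartile, removal of a length trend, and 2-fold. Matches to transcripts of other genes were found with blastn 2.17.0. Scripts ran in Python 3.11.15 with pandas 2.3.3, numpy 2.4.6 and matplotlib 3.10.9, and were tested on simulated data.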

Additional observations from a re-analysis of the deposited data

Results flagged for a closer look

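In 2 genes the log2 fold change of PGC-1α was above 0 without OGD and at least 1.5-fold below it with OGD, and the difference between these fold changes was not tested. It was -0.95 for Acad9 (0.21 without and -0.74 with OGD) and -0.67 for Surf1 (0.07 and -0.60). The 1.5-fold call of Surf1 with OGD was lost with its highest transcript (-0.43), with upper quartile scaling (-0.58) and with the length trend removed (-0.55).

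In 5 genes OGD moved control cells by at least 1.5-fold and PGC-1α cells the other way, again untested and with 1 library per group. The difference was -0.95 for Acad9 (0.66 in control and -0.29 in PGC-1α cells), the same number as above because the 4 libraries are the same. It was -0.74 for Coa3 (0.64 and -0.09), -0.59 for Coa6 (0.59 and -0.00), -0.82 for Cox19 (0.81 and -0.02) and 1.25 for Coq6 (-0.93 and 0.32). For Coa3, Coa6 and Cox19 the PGC-1α cells were close to level, so the opposite signs rest on differences of at most 0.09 there. The Coq6 difference includes a Ctrl+OGD level of 0.175 FPKM, which is near 0 and of unknown precision.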

How the results depend on the processing

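No library had a replicate and depth is unknown, so neither the spread within a group nor the precision of a value can be given. The median log2 fold change of the 56 genes stayed within 0.1 of its reported value under every alternative run in all 4 comparisons, but in PGC-1α+OGD vs Ctrl+OGD that is wide beside the value, which went from 0.05 to 0.12 with the length trend removed. Counts of called genes were small and moved more. With the highest transcript for each gene, 1 of 55 was lower in PGC-1α vs Ctrl (all genes, 9.30%), 12 were higher in Ctrl+OGD vs Ctrl (9.59%), and 1 was higher and 5 lower in PGC-1α+OGD vs PGC-1α (7.46% and 8.73%). Ecsit then reversed to -0.55 in PGC-1α vs Ctrl. At 2-fold, 1 was higher in PGC-1α vs Ctrl (1.47%), 1 was higher and 0 lower in PGC-1α+OGD vs Ctrl+OGD (1.02% and 1.08%), and 0 were higher and 0 lower in Ctrl+OGD vs Ctrl (1.49% and 1.94%). In PGC-1α+OGD vs Ctrl+OGD, 4 were lower with a pseudocount of 0.01 (5.28%), 1 was lower with upper quartile scaling (3.55%) and 1 with the length trend removed (3.51%), and 1 was higher with a mean of at least 5 (2.43%). In Ctrl+OGD vs Ctrl, 0 were lower with a mean of at least 5 (5.95%), and 3 were higher with the length trend removed (6.21%). In PGC-1α+OGD vs PGC-1α, 3 were lower with a pseudocount of 0.1 (7.23%) and 3 with 0.01 (7.59%), and 1 was lower with upper quartile scaling (5.35%). Apart from what the filters and the 2-fold threshold do by construction, the cause was not tested. Of 18 called values of single genes, 18 kept their call under median ratio scaling, no filter and both pseudocounts, 16 under upper quartile scaling, 13 with the length trend removed, 13 with the highest transcript and 2 at 2-fold. Calls lost other than at 2-fold or by a filter were those of Sdhaf4 and Coa6 in PGC-1α vs Ctrl and Coa3 and Coa6 in Ctrl+OGD vs Ctrl with the length trend removed, Coa6 in Ctrl+OGD vs Ctrl with upper quartile scaling, Coq8a in PGC-1α+OGD vs Ctrl+OGD with the highest transcript, and Surf1 there under all 3 of these alternatives. With the highest transcript Coq6 had a mean under 1 FPKM and gave no value.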
